A study of Mus musculus with 10 samples.

Results

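Heat shock proteins and their DnaJ partners are the chaperones that fold, refold and hold other proteins in the cell. The genes described here were every row of the 10 single-cell count tables whose mouse symbol begins with Hspa, Hspb, Hspd, Hspe, Hsph, Hsp90, Dnaja, Dnajb or Dnajc, leaving out the endoplasmic reticulum (ER) chaperones *Hspa5* and *Hsp90b1*. That rule gave 70 of 18292 gene symbols. They were read as 11 inducible genes, known as targets of the heat shock response, and 59 constitutive genes, which are all the others. Of the 59, 3 share only the symbol prefix and do not encode heat shock proteins. The inducible genes *Hsp90aa1*, *Hspd1*, *Hspe1* and *Hspb1* stood highest in microglia taken from brain slices after 1 day of culture. The abundant constitutive genes *Hsp90ab1* and *Hspa8* were higher in every cultured group than in adult brain, and *Hspb3*, *Dnajb9* and the heat shock factor *Hsf1* were lower in every cultured group.

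Microglia, the resident macrophages of the brain, were all from C57BL/6 mice, with no transgene named in the labels. They were sorted as live cells that were high for CD11b and intermediate for CD45, after what the labels call an ice-cold isolation. According to the methods of the study, adult brain and slices were homogenized on ice and separated on a density gradient with 1 warmer spin, slices being pooled where needed, whereas the *in vitro* cells were collected from the culture medium. The 5 groups compared, of 2 libraries each, were microglia taken directly from adult brain, microglia kept for 3 weeks in a mixed glial culture (*in vitro*), and microglia from brain slices cultured for 1 day (slice 1 day), 1 week (slice 1 week) or 3 weeks (slice 3 weeks). According to the methods of the study, slices and mixed glia came from neonatal pups and the adult group from young adult mice. Age and culture can therefore not be told apart in any comparison with adult brain, nor the way of collection and culture in those with *in vitro* cells. The series design states that the 2 libraries of a group are biological replicates.

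HSP70 and HSP90 proteins bind unfolded clients in cycles driven by ATP. DnaJ proteins (J proteins) bring clients to HSP70 and start ATP hydrolysis, while HSP110 proteins and BAG proteins release the nucleotide. The pair *Hspd1* and *Hspe1* encodes HSP60 and HSP10, the folding chamber of the mitochondrial matrix, and small heat shock proteins such as that of *Hspb1* hold unfolded clients without ATP. On heat or other protein-damaging stress the transcription factor HSF1 binds heat shock elements, repeats of the unit GAA in alternating orientation, and raises the inducible genes. In the brain, chaperones are best known for limiting the aggregation of proteins in neurodegeneration.

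The promoter sequences are shown because a heat shock element was found before most inducible and few constitutive genes. RefSeq windows on mouse build GRCm38.p6, running from 250 bases before to 50 bases after an annotated gene start, matched 56 of the 70 genes by symbol, 10 inducible and 46 constitutive, with 73 windows in all. Both strands were searched for a 2-unit element, either GAANNTTC or TTCNNGAA, and for a 3-unit element, GAANNTTCNNGAA, which contains both 2-unit forms. A 2-unit element was present for 9 of 10 inducible genes (90%) and for 6 of 46 constitutive genes (13.0%), against 17.0% of all 27025 genes with a window. *Dnajb1* was the inducible gene with a window but no such match. The 3-unit element was present for *Hspd1*, *Hspe1* and *Hsph1* and for 1 constitutive gene, *Dnajb6*, against 0.662% of all genes. A match is a description of these letters and not a measured binding site, and no match says only that these letters are not in this window. The 250 bases before the start are given 5′ to 3′ on the strand of the gene, with the matches in capitals, for *Hspe1* (chr1:55087898-55088147, plus strand), *Hsph1* (chr5:149636337-149636586, minus strand) and *Hspa1a* (chr17:34972157-34972406, minus strand).
*Hspe1*: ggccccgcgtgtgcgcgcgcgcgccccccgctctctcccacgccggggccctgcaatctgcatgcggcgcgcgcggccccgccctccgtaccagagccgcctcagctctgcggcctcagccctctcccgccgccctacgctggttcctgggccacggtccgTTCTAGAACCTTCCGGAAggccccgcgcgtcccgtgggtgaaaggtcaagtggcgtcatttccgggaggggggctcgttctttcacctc
*Hsph1*: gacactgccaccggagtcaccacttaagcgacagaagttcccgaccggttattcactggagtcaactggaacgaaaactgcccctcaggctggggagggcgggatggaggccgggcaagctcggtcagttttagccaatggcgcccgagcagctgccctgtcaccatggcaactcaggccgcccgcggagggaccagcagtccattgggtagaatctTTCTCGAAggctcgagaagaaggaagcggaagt
*Hspa1a*: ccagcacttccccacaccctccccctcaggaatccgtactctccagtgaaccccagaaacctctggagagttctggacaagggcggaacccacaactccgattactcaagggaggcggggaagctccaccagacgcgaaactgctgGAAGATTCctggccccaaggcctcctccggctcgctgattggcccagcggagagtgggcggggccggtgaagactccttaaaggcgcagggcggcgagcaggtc
The capitals of *Hspe1* mark 18 bases from -89 to -72 that hold 2 overlapping 3-unit elements. *Hspd1* starts in the opposite direction next to *Hspe1* on chromosome 1, and in its own upstream window (chr1:55087933-55088182, minus strand) the same stretch reads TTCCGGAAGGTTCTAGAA, the reverse complement of the *Hspe1* stretch. The 3-unit element of *Hsph1* lies after its start, from 36 to 48, and the 2-unit match in the printed sequence lies from -33 to -26. The single 2-unit match of *Hspa1a* lies from -104 to -97.

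**Figure D1:**
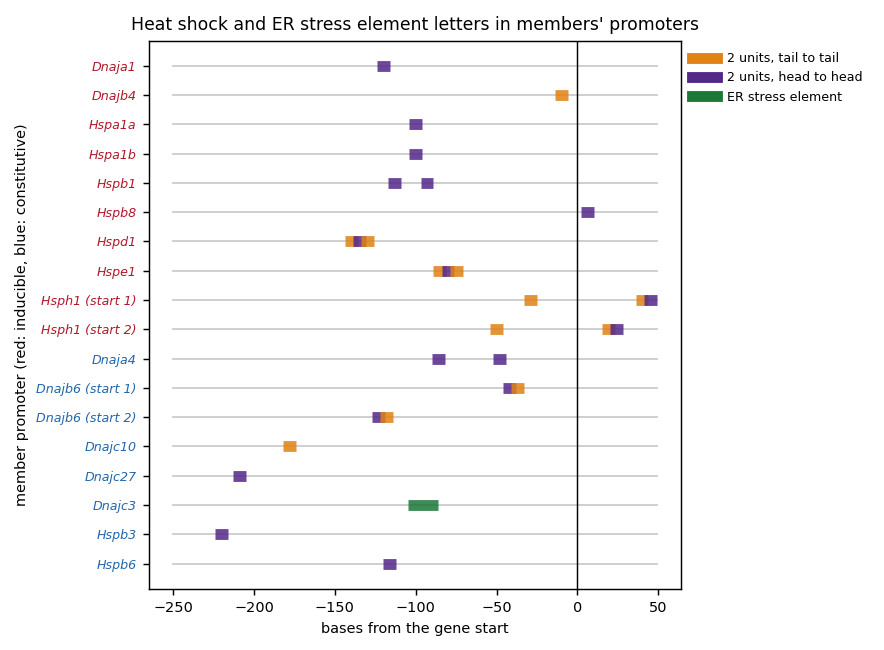
Positions of element letters around the annotated starts of the genes that hold them, with GAANNTTC (head to head) in purple, TTCNNGAA (tail to tail) in orange and the ER stress element of *Dnajc3* in green. The horizontal axis gives bases from the gene start, from 250 before to 50 after it, and each row is 1 promoter window. Heat shock element matches are seen for 9 of 10 inducible genes with a window and for 6 of 46 constitutive genes.

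The libraries held 19637 cell barcodes, of which 19059 were kept. Between 61 and 3799 cells were kept per library, with 385373 to 39689540 unique molecular identifiers (UMIs, counted RNA molecules) per library and a median of 1858 to 13966 UMIs per cell. The slice 1 week libraries were the smallest, with 148 and 61 cells, so that a count of 3 there equals 2.78 and 7.78 counts per 1e6 UMIs (CPM). Libraries shared at most 3.28% of the barcodes of the smaller one. All 11 microglia markers were detected in every library, with a summed level of 65003 and 66563 CPM in adult and of 11879 to 42956 in the cultured groups. Some were close to absent *in vitro*, with *Sall1* at 0.294 and 0.0756 CPM and *Siglech* at 0.353 and 0.0504. Others stayed abundant there, such as *C1qa* at 6849 and 6083 CPM. Genes of a 7-gene neutrophil list summed to 955 to 41122 CPM in the slice 1 day and slice 1 week libraries and to at most 8.4 elsewhere. A monocyte list summed to 154 and 363 CPM in slice 1 day and 850.3 CPM in slice 1 week replicate 1, and to at most 7.1 elsewhere, and an astrocyte list to 152 and 148 CPM in adult and 3.9 to 33.8 in culture. The part of these cells in the results was not tested beyond the exclusions given at the end. Genes of a 12-gene proliferation list summed to 40.9 and 44.1 CPM in adult and to 206 to 526 in culture, and 13 immediate early genes summed to 1165 and 1317 CPM in adult, 1125 and 1362 in slice 1 day, and 366 to 897 in the other groups. A 4-gene erythroid list summed to 1846 CPM in adult replicate 1 and 3460 CPM in slice 1 day replicate 1. In the other 8 libraries it summed to at most 1.0 CPM.

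All 70 genes together took 0.378% and 0.412% of the UMIs of the adult libraries. The share was 0.663% and 0.674% in slice 1 day and between 0.429% and 0.512% in the *in vitro*, slice 1 week and slice 3 weeks libraries. The inducible genes took 0.0635% ± 0.0082 (SD, n = 2) of UMIs in adult and 0.153% ± 0.0106 in slice 1 day. They took 0.0838% ± 0.0010 *in vitro*, 0.0720% ± 0.0123 in slice 1 week and 0.0820% ± 0.0070 in slice 3 weeks. Both slice 1 day libraries, at 0.160% and 0.145%, lay above all 8 other libraries, whose highest value was 0.087%. Without 2 cells rich in *Hspa1a*, described below, slice 1 day replicate 1 was at 0.140%. The constitutive genes took 0.332% of UMIs in adult, 0.427% *in vitro*, 0.516% in slice 1 day, 0.397% in slice 1 week and 0.387% in slice 3 weeks. Here too the slice 1 day libraries, at 0.503% and 0.529%, lay above the other 8, whose highest value was 0.429%. With 2 libraries against 2, the smallest two-sided p that an exact permutation test of a single value allows is 0.333, so none was made on these shares.

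**Figure D2:**
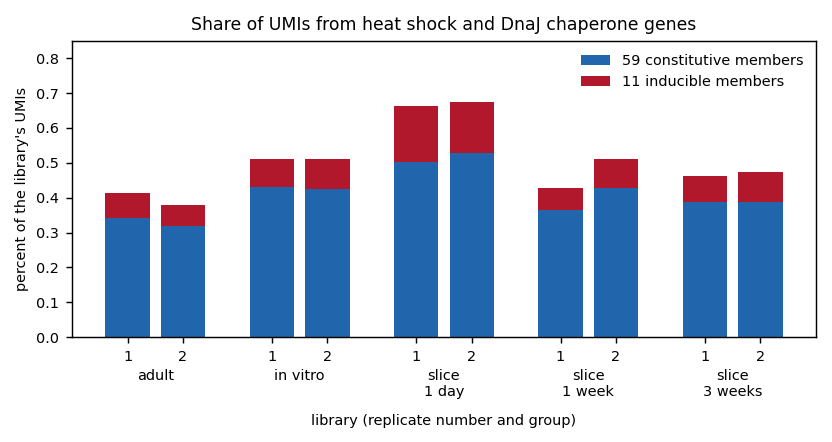
Percent of all UMIs of a library that fell on the inducible and on the constitutive chaperone genes. Each bar is 1 library, with the inducible share stacked on the constitutive share, and the axis starts at 0. The 2 slice 1 day libraries lie above the other 8 for the inducible genes and likewise for the constitutive genes.

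Of the 70 genes, 58 had enough counts to be tested, 10 of the 11 inducible and 48 of the 59 constitutive genes. The 12 genes not tested were *Dnajb3*, *Dnajb7*, *Dnajc22*, *Dnajc5b*, *Dnajc6*, *Hspa12a*, *Hspa12b*, *Hspa1l*, *Hspb2*, *Hspb7*, *Hspb8* and *Hspb9*, with 1 to 38 UMIs each over all 10 libraries and no level above 1.34 CPM. UMIs were summed per library and tested with edgeR's quasi-likelihood test. A gene was called higher or lower at an adjusted p (Benjamini-Hochberg over 12157 genes) under 0.05 and a fold change over 1.5. Levels are given below as CPM after normalization by trimmed mean of M values (TMM), and differences as log2 fold changes with their standard error.

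In *in vitro* against adult microglia, 19 genes were higher and 12 lower, that is 6 and 1 of the 10 inducible and 13 and 11 of the 48 constitutive genes. Over all genes tested 22.4% were called higher and 28.5% lower. In slice 1 day against adult, 17 genes were higher and 10 lower (6 and 1 inducible, 11 and 9 constitutive), with 24.9% and 25.3% over all genes. In slice 1 week against adult, 6 were higher and 10 lower (2 and 1 inducible, 4 and 9 constitutive), with 15.0% and 13.6% over all genes. In slice 3 weeks against adult, 16 were higher and 6 lower (4 and 0 inducible, 12 and 6 constitutive), with 17.9% and 17.5% over all genes. In *in vitro* against slice 3 weeks, 7 were higher and 10 lower (3 and 1 inducible, 4 and 9 constitutive), with 13.3% and 19.9% over all genes. In slice 3 weeks against slice 1 day, 7 were higher and 8 lower (1 and 4 inducible, 6 and 4 constitutive), with 13.9% and 12.8% over all genes. The share of inducible genes called higher was above that of all genes in 5 of the 6 comparisons, slice 3 weeks against slice 1 day being the exception. In slice 1 week against adult that share was 2 of 10 beside 15.0% of all genes, too few genes to tell the shares apart. The 4 comparisons with adult share its 2 libraries, so the 5 are not independent of each other. The median log2 fold change of the 10 inducible genes was 0.83 *in vitro* and 1.29 in slice 1 day against adult, beside 0.07 and 0.06 for the constitutive genes and -0.11 and -0.06 for all genes. It was -0.19 in slice 1 week and -0.06 in slice 3 weeks against adult, so that the inducible genes higher at 3 weeks were 4 of 10 around a median near 0. These counts depend on the scaling. With library size alone, which shifts the median of all genes to -0.42 *in vitro* and to -0.24 in slice 3 weeks against adult, the counts were 15 higher and 19 lower and 10 higher and 11 lower. The same scaling gave 6 higher and 12 lower in slice 3 weeks against slice 1 day, and DESeq2 gave 7 higher and 7 lower in slice 1 week against adult. With cells thinned to 1800 UMIs slice 1 week against adult gave 3 higher and 3 lower. Thinning left 2 genes higher in slice 3 weeks than in slice 1 day, and leaving out proliferating cells left 3. Adult replicate 1 and slice 3 weeks replicate 1 carry another study label than the other 8 libraries. With those 8, the larger study label, alone the counts in slice 3 weeks against slice 1 day were 13 higher and 12 lower, and with the label as a covariate 13 were lower. Single libraries also moved some counts. The genes lower in slice 1 week than in adult were 6 without adult replicate 2, 5 without slice 1 week replicate 1 and 6 without slice 1 week replicate 2, and those lower in slice 3 weeks than in adult were 3 without adult replicate 1. *In vitro* against slice 3 weeks gave 4 higher and 3 lower without either *in vitro* library, and 5 lower without slice 3 weeks replicate 2. In slice 3 weeks against slice 1 day the genes higher were 3 without slice 1 day replicate 1, 1 without slice 1 day replicate 2, 12 without slice 3 weeks replicate 1 and 2 without slice 3 weeks replicate 2, and those lower were 5 without slice 1 day replicate 2.

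**Figure D3:**
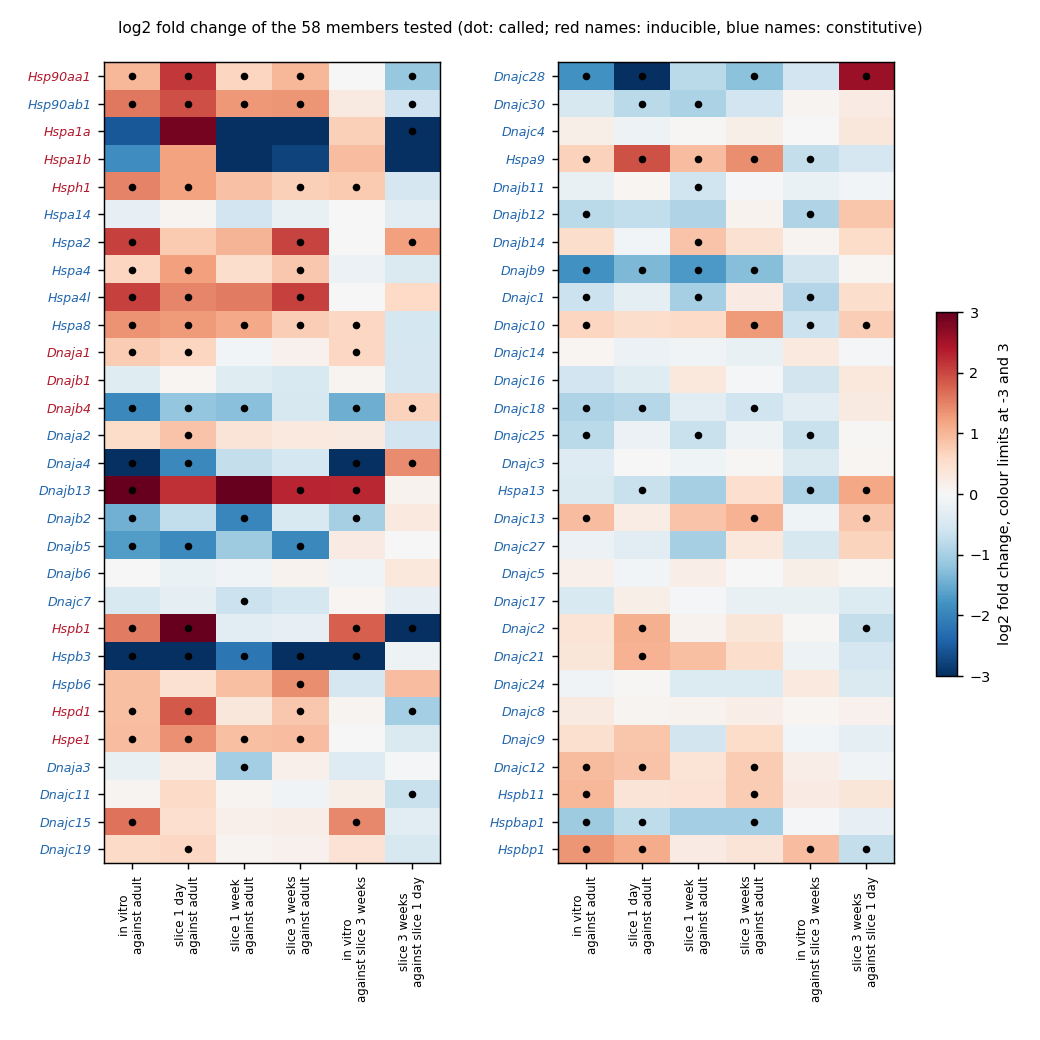
Log2 fold changes of the 58 tested genes in the 6 comparisons, with the colour scale ending at -3 and 3 and a dot where the gene was called. Inducible names are in red and constitutive names in blue. In slice 1 day against adult, 6 of the 10 inducible genes were called higher.

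*Hsp90aa1*, the inducible cytosolic HSP90 (chr12:110691036-110696395), was at 121 and 85.9 CPM in adult, 193 and 221 *in vitro*, 452 and 450.5 in slice 1 day, 146 and 182 in slice 1 week, and 188 and 223 in slice 3 weeks. Both slice 1 day libraries were far above the next highest library, and both adult libraries were below all others. The log2 fold change against adult was 2.13 ± 0.19 in slice 1 day (edgeR adjusted p = 1.40e-05), 1.00 ± 0.19 *in vitro* (adjusted p = 0.00111), 0.99 ± 0.19 in slice 3 weeks (adjusted p = 0.00217) and 0.65 ± 0.20 in slice 1 week (adjusted p = 0.0333). The call at 1 week was lost when any of 6 single libraries was left out, with 0.41 without adult replicate 2, 0.46 without slice 1 week replicate 2, 0.84 without slice 1 week replicate 1, 0.63 without slice 1 day replicate 1 and 0.65 without either *in vitro* library. It was also lost with library size alone (0.45) and with thinned cells (0.57). From 1 day to 3 weeks in slices the gene fell by 1.13 ± 0.19 on the log2 scale (adjusted p = 0.00187), and *in vitro* and slice 3 weeks differed by 0.01 ± 0.19.

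The mitochondrial chaperonin genes *Hspd1* and *Hspe1*, which share the heat shock elements printed above, were both highest in slice 1 day. *Hspd1* (HSP60) was at 65.6 and 79.0 CPM in adult, 136 and 133 *in vitro*, 244 and 269 in slice 1 day, 69.2 and 123 in slice 1 week, and 120.3 and 132 in slice 3 weeks. Its partner *Hspe1* (HSP10) was at 171 and 132 CPM in adult, 278 and 299.9 *in vitro*, 377 and 404 in slice 1 day, 264 and 309.6 in slice 1 week, and 241 and 333 in slice 3 weeks. The slice 1 day libraries of both genes lay above the 8 others, and the adult libraries of *Hspe1* below the 8 others, whereas for *Hspd1* slice 1 week replicate 1 fell among the adult values. Against adult, *Hspd1* was higher by 1.83 ± 0.21 in slice 1 day (edgeR adjusted p = 5.44e-05) and 0.90 ± 0.20 *in vitro* (adjusted p = 0.00353), and *Hspe1* by 1.37 ± 0.19 (adjusted p = 0.000205) and 0.93 ± 0.19 (adjusted p = 0.00189). In slice 3 weeks the differences were 0.81 ± 0.20 for *Hspd1* and 0.92 ± 0.19 for *Hspe1*, both called, and the *Hspd1* call was lost without adult replicate 1 (0.73) and with the larger study label alone (0.74). In slice 1 week *Hspe1* was called at 0.91 ± 0.20 and lost its call without adult replicate 2 (0.72). *Hspd1*, at 0.34 ± 0.23, was not called there, and was called without slice 1 week replicate 1 (0.80). From 1 day to 3 weeks in slices *Hspd1* fell by 1.02 ± 0.20 (adjusted p = 0.00473), while *Hspe1* at -0.44 ± 0.19 was not called, except without slice 3 weeks replicate 2 (-0.69).

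The HSP110 gene *Hsph1* and the J protein gene *Dnaja1*, whose product works with HSP70 in the cytosol, were highest *in vitro*. *Hsph1* was at 5.64 and 3.48 CPM in adult, 12.6 and 13.6 *in vitro*, 9.44 and 11.7 in slice 1 day, 7.91 and 10.2 in slice 1 week, and 7.50 and 7.73 in slice 3 weeks. *Dnaja1* was at 152 and 120.2 CPM in adult, 234 and 226 *in vitro*, 215 and 211 in slice 1 day, 132 and 125 in slice 1 week, and 161 and 139 in slice 3 weeks. The *in vitro* libraries of both lay above the 8 others, though for *Dnaja1* the margin over slice 1 day was small, and all adult values of *Hsph1* were below all others. Against adult, *Hsph1* was higher by 1.48 ± 0.25 *in vitro* (edgeR adjusted p = 0.000499) and 1.20 ± 0.26 in slice 1 day (adjusted p = 0.00305), and *Dnaja1* by 0.76 ± 0.15 *in vitro* (adjusted p = 0.00156) and 0.65 ± 0.15 in slice 1 day (adjusted p = 0.00443). The slice 1 day call of *Dnaja1* was lost without adult replicate 2 (0.49), and with library size alone both *Dnaja1* calls were lost (0.45 and 0.53). *In vitro* against slice 3 weeks, *Hsph1* was higher by 0.78 ± 0.23 and *Dnaja1* by 0.62 ± 0.15. The *Hsph1* call was lost without *in vitro* replicate 1 (0.91) or replicate 2 (0.80) and without cells with markers of other types (0.74). The *Dnaja1* call was lost without slice 3 weeks replicate 2 (0.58), with library size alone (0.52) and with thinned cells (0.57). The small difference of *Hsph1* between slice 3 weeks and adult, 0.71 ± 0.26 (adjusted p = 0.0492), lost its call under 5 single-library omissions and ranged there from 0.43 without adult replicate 2 to 0.76 without either *in vitro* library, with 0.70 without slice 1 day replicate 1 and 0.72 without slice 3 weeks replicate 2. It was also lost with DESeq2 (0.74), library size alone (0.51) or the replicate block (0.71) and, at 0.71 each, without cells with markers of other types, cells over 1% neutrophil UMIs or cells over 100 *Hspa1a* UMIs. The value was 1.19 without adult replicate 1 and 1.15 with the larger study label alone, called in both.

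*Hspb1*, the small heat shock protein HSP25, was low in all libraries and highest in slice 1 day. It was at 1.17 and 0.515 CPM in adult, 3.08 and 2.25 *in vitro*, 8.91 and 7.83 in slice 1 day, 0 and 2.56 in slice 1 week, and 1.03 and 0.606 in slice 3 weeks. The slice 1 day libraries did not overlap with any other, and the highest single cell held 11 of 34 UMIs in the first of them and 10 of 76 in the other. The difference from adult was 3.19 ± 0.50 in slice 1 day (edgeR adjusted p = 0.000419) and ranged from 2.82 to 4.03 over the alternatives. From 1 day to 3 weeks the gene fell by 3.44 ± 0.51 (adjusted p = 0.00109). *In vitro* it was higher than in adult by 1.55 ± 0.49 (adjusted p = 0.021), but 1 cell in each *in vitro* library held 62 of 96 and 55 of 80 of the UMIs, and the call was lost without adult replicate 2 (1.17), *in vitro* replicate 1 (1.44), proliferating cells (1.37) or cells with markers of other types (1.54). The difference between *in vitro* and slice 3 weeks, 1.80 ± 0.50, was lost likewise without *in vitro* replicate 1 (1.62), slice 3 weeks replicate 2 (1.42), proliferating cells (1.52) or cells with markers of other types (1.75). *Hspb8*, another small heat shock protein, had 7 UMIs in all.

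*Dnajb4* and *Dnajb1*, both J proteins that serve HSP70 in the cytosol, were called higher than in adult in no cultured group. *Dnajb4* was at 40.6 and 47.5 CPM in adult, 11.1 and 11.9 *in vitro*, 22.0 and 17.8 in slice 1 day, 19.8 and 15.4 in slice 1 week, and 23.9 and 38.8 in slice 3 weeks. Adult values were above and *in vitro* values below all others. The gene was lower than in adult by -1.93 ± 0.22 *in vitro* (edgeR adjusted p = 3.97e-05), -1.16 ± 0.23 in slice 1 day (adjusted p = 0.00171) and -1.26 ± 0.32 in slice 1 week (adjusted p = 0.0146), and lower *in vitro* than in slice 3 weeks by -1.46 ± 0.22 (adjusted p = 0.000601). The slice 1 week call was lost without adult replicate 2 (-1.16), slice 1 week replicate 1 (-1.49) or slice 1 week replicate 2 (-1.19) and with thinned cells (-0.81). In slice 3 weeks against adult it was -0.47 ± 0.22, not called, and called without slice 3 weeks replicate 2 (-0.82) and with library size alone (-0.68). The difference between slice 3 weeks and slice 1 day, 0.69 ± 0.23 (adjusted p = 0.0437), was lost without any 1 library other than slice 3 weeks replicate 1, with 0.30 without slice 3 weeks replicate 2. It was also lost with DESeq2 (0.67), library size alone (0.61) or the replicate block (0.67) and without proliferating cells (0.57) or cells over 1% neutrophil UMIs (0.64). *Dnajb1*, a partner of *Hspa1a* and *Hspa8*, ranged from 28.1 to 50.1 CPM over all 10 libraries and was called in none of the 6 comparisons, with log2 fold changes between -0.49 and 0.09. With scaling by library size alone it was called lower than in adult *in vitro* (-0.66, edgeR adjusted p = 0.00757) and in slice 3 weeks (-0.64, adjusted p = 0.014), the latter also without adult replicate 2 (-0.66). Between slice 3 weeks and slice 1 day it was called lower with the study label as a covariate (-0.68), with the larger study label alone (-0.63), without proliferating cells (-0.61) and without slice 3 weeks replicate 1 (-0.64).

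*Hspa1a*, the classic heat-inducible HSP70 (chr17:34969359-34972156), differed widely between the 2 libraries of adult and of slice 1 day. It was at 20.4 and 0.258 CPM in adult, 2.02 and 1.77 *in vitro*, 159 and 9.07 in slice 1 day, 0 in both slice 1 week libraries, whose floors of 3 counts lie above the values of several other libraries, and 1.03 and 1.21 in slice 3 weeks. In slice 1 day replicate 1, 2 cells held 551 of the 605 *Hspa1a* UMIs. The first had 389 *Hspa1a* UMIs of 1715 in all, with 32.9% of its UMIs on inducible genes, 103 UMIs of the neutrophil list and 2 of the microglia list, and the second had 162 of 2245, with 43 UMIs of the microglia list. Replicate 1 of adult and of slice 1 day, the higher library in each group, were also those with erythroid transcripts, and the part of other cells in these values was not tested. The log2 fold change between slice 1 day and adult was 2.88 ± 1.24 (edgeR adjusted p = 0.0742) and was not called. It was -0.25 without slice 1 day replicate 1 and 0.07 without the 2 cells above, and it was called without adult replicate 1 (8.30) or slice 1 day replicate 2 (3.92). It was called as well with the study label as a covariate (5.06), with the larger study label alone (8.21), without the filter on low counts (2.91), with the replicate block (2.86), with thinned cells (2.91) and without proliferating cells. From 1 day to 3 weeks *Hspa1a* fell by 6.13 ± 1.58 (adjusted p = 0.0175), which was lost without slice 1 day replicate 1 (-2.98), without slice 3 weeks replicate 2 (-6.23) and without the 2 cells above (-3.29). The *in vitro* and slice 3 weeks differences from adult, -2.54 ± 1.32 and -3.25 ± 1.57, were not called. They turned to 2.93 and 2.17, not called, without adult replicate 1, and were called at -3.42 and -4.13 without adult replicate 2, so that their direction rests on 1 adult library. Both were called without the filter on low counts (-2.37 and -3.17), and the second also without the 2 cells above (-3.22). *Hspa1b* (chr17:34956429-34959238) is a near-identical copy and was at 4.46 CPM or less, and the division of reads between the copies is uncertain.

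**Figure D4:**
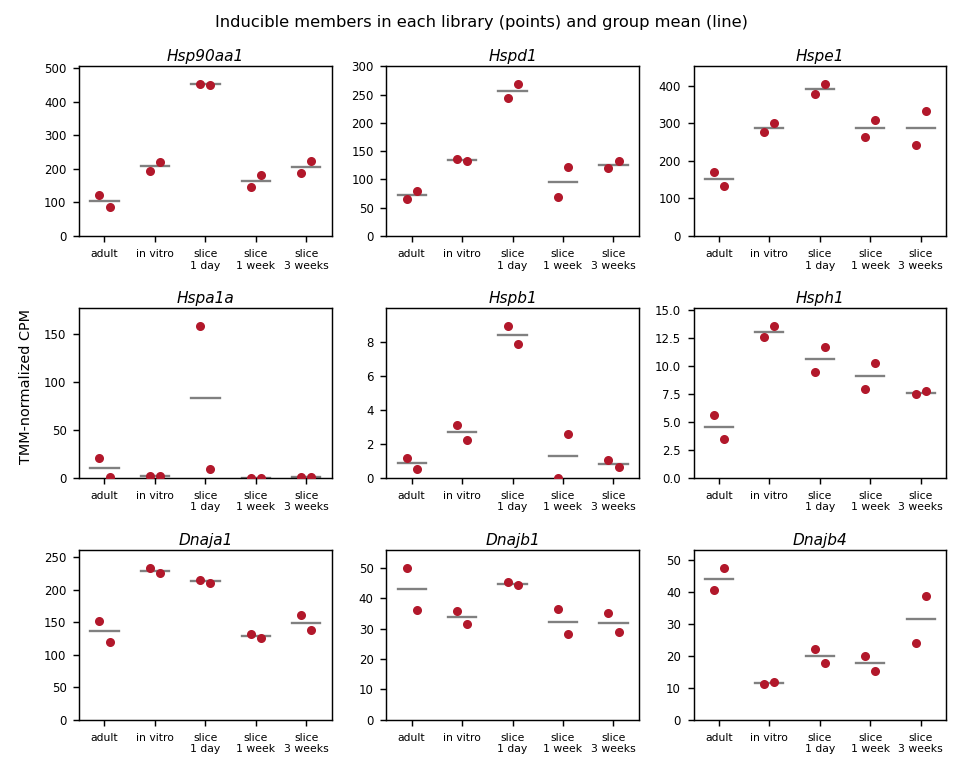
Levels of the inducible chaperone genes in TMM-normalized CPM, with 1 panel per gene and linear axes from 0. Points are libraries and lines the means of 2 libraries. *Hsp90aa1*, *Hspd1*, *Hspe1* and *Hspb1* were highest in both slice 1 day libraries, *Hsph1* and *Dnaja1* *in vitro*, and *Dnajb4* in adult, while *Hspa1a* rests on 1 slice 1 day library.

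Read by group, 4 of the 10 inducible genes had both slice 1 day libraries above the 8 others, namely *Hsp90aa1*, *Hspb1*, *Hspd1* and *Hspe1*, where 10.5% of all genes tested did. Of the 48 constitutive genes 7 did, namely *Dnaja2*, *Dnajc11*, *Dnajc17*, *Dnajc2*, *Hsp90ab1*, *Hspa4* and *Hspa9*. Both adult libraries were above the 8 others for 1 inducible gene, *Dnajb4*, and for 10 constitutive genes, against 20.4% of all genes. The 10 were *Dnaja4*, *Dnajb5*, *Dnajb9*, *Dnajc18*, *Dnajc25*, *Dnajc28*, *Dnajc30*, *Dnajc7*, *Hspb3* and *Hspbap1*. Both *in vitro* libraries were above the 8 others for 2 inducible genes, *Hsph1* and *Dnaja1*, and 4 constitutive genes, *Dnajb13*, *Dnajc15*, *Hspb11* and *Hspbp1*, against 11.7% of all genes. For slice 3 weeks this held for 3 constitutive genes, *Dnajc1*, *Dnajc10* and *Hspb6*, against 3.49% of all genes, and for slice 1 week for 0 inducible genes and 1 constitutive gene, *Dnajb14*, against 4.86%. At the other end, both adult libraries were below the 8 others for 3 inducible genes, *Hsph1*, *Hsp90aa1* and *Hspe1*, and 8 constitutive genes, against 14.8% of all genes. Both *in vitro* libraries were lowest for 1 inducible gene, *Dnajb4*, and 5 constitutive genes, against 9.98%. Slice 1 day was lowest for 0 inducible and 3 constitutive genes, against 7.45%, slice 1 week for 5 constitutive genes, against 7.45%, leaving out *Hspa1a*, where 0 UMIs in these small libraries give no rank, and slice 3 weeks for 0 inducible genes and 1 constitutive gene, *Dnajc11*, against 2.34%.

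*Hsp90ab1* and *Hspa8*, the constitutive genes with the most UMIs, were higher in every cultured group than in adult. *Hsp90ab1*, the constitutive HSP90 (chr17:45567778-45573261), was at 330.3 and 196 CPM in adult, 782 and 801 *in vitro*, 961 and 1059 in slice 1 day, 625 and 665 in slice 1 week, and 627 and 686 in slice 3 weeks. *Hspa8*, the constitutive HSP70 that also uncoats clathrin vesicles (chr9:40801276-40805202), was at 868 and 592 CPM in adult, 1860.4 and 1875 *in vitro*, 1659 and 1863 in slice 1 day, 1513 and 1714 in slice 1 week, and 1282 and 1144 in slice 3 weeks. For both genes the adult libraries lay below all 8 others. *Hsp90ab1* was higher than in adult by 1.94 ± 0.22 in slice 1 day (edgeR adjusted p = 5.05e-05), 1.59 ± 0.22 *in vitro* (adjusted p = 0.000136), 1.32 ± 0.22 in slice 3 weeks (adjusted p = 0.000912) and 1.29 ± 0.22 in slice 1 week (adjusted p = 0.00159). *Hspa8* was higher by 1.36 ± 0.19 *in vitro* (adjusted p = 0.000156), 1.27 ± 0.19 in slice 1 day (adjusted p = 0.000286), 1.14 ± 0.19 in slice 1 week (adjusted p = 0.00139) and 0.73 ± 0.19 in slice 3 weeks (adjusted p = 0.0105). The last was lost without adult replicate 2 (0.48) and with library size alone (0.54). *Hspa8* was higher *in vitro* than in slice 3 weeks by 0.62 ± 0.19, a call lost without *in vitro* replicate 1 (0.70), *in vitro* replicate 2 (0.69) or slice 3 weeks replicate 2 (0.61) and with library size alone (0.52). From 1 day to 3 weeks *Hsp90ab1* fell by 0.62 ± 0.21 (adjusted p = 0.0484), which was lost without any 1 of the 8 cultured libraries, with values from -0.69 without slice 1 day replicate 1 to -0.54 without slice 1 day replicate 2. This call was also lost without the filter on low counts (-0.58), with the larger study label alone (-0.56), with the replicate block (-0.62), with thinned cells (-0.62) and without proliferating cells (-0.54).

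The mitochondrial members were divided. *Hspa9*, the matrix HSP70 mortalin, was at 65.9 and 71.2 CPM in adult, 112 and 109 *in vitro*, 255 and 261 in slice 1 day, 139 and 120.3 in slice 1 week, and 151 and 211 in slice 3 weeks. It was higher than in adult in all 4 cultured groups, by 1.91 ± 0.17 in slice 1 day (edgeR adjusted p = 1.31e-05), 1.40 ± 0.17 in slice 3 weeks (adjusted p = 0.000151), 0.94 ± 0.18 in slice 1 week (adjusted p = 0.00374) and 0.69 ± 0.17 *in vitro* (adjusted p = 0.00528). The slice 1 week call was lost without slice 1 week replicate 1 (0.84) and with thinned cells (0.70), and the *in vitro* call with library size alone (0.38) and with the study label as a covariate (0.54). It was also lower *in vitro* than in slice 3 weeks (-0.71 ± 0.17), a call lost without *in vitro* replicate 1 (-0.65), *in vitro* replicate 2 (-0.62) or slice 3 weeks replicate 2 (-0.39). *Dnajc15*, a J protein of the mitochondrial import motor (chr14:77826217-77874917), stood apart *in vitro*, at 132 and 143 CPM, against 47.8 and 40.4 in adult and 42.5 to 65.6 in the slice libraries. It was higher *in vitro* than in adult by 1.64 ± 0.17 (adjusted p = 1.84e-05) and than in slice 3 weeks by 1.44 ± 0.17 (adjusted p = 0.000116). *Dnaja3*, a matrix J protein, was lower in slice 1 week, at 15.8 and 15.4 CPM against 29.7 and 33.6 in adult (-1.01 ± 0.22), a call lost without slice 1 week replicate 1, where the value was also -1.01, and with thinned cells (-0.86). *Dnajc11*, a J protein of the mitochondrial cristae complex, was at 36.4 and 41.4 CPM in slice 1 day and 24.8 and 24.2 in slice 3 weeks, a fall of -0.67 ± 0.14 (adjusted p = 0.00512) that was lost without slice 1 day replicate 2 (-0.56), without proliferating cells (-0.58) and with thinned cells (-0.52). Of the 8 mitochondrial HSP70 and J protein genes tested, 2 were higher and 1 lower *in vitro*, and 2 were higher and 2 lower in slice 1 day, than in adult. The 25.0% higher in each was near the 22.4% and 24.9% of all genes.

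*Hspb3*, a small heat shock protein best known from muscle (chr13:113662896-113663676), gave the largest difference from adult among the genes called. It was at 58.2 and 58.7 CPM in adult, 4.98 and 5.67 in slice 1 day, 10.9 and 17.9 in slice 1 week, and 4.53 and 5.12 in slice 3 weeks. *In vitro* it had 1 UMI over both libraries, against 1250 in adult, an adult level 3897 times that *in vitro* with a 95% interval from 698 to 154047 that covers counting error only. No library of any cultured group overlapped with adult. The fall from adult was -3.43 ± 0.23 in slice 1 day (edgeR adjusted p = 2.09e-06), -2.16 ± 0.29 in slice 1 week (adjusted p = 0.000415) and -3.58 ± 0.22 in slice 3 weeks (adjusted p = 2.43e-06). Slice 3 weeks, with 145 UMIs, was 332 times above *in vitro*, with a 95% counting interval from 58.6 to 13186.

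Of 12 ER HSP70 and J protein genes tested, 1 was higher and 5 lower *in vitro* (8.33% and 41.7%, beside 22.4% and 28.5% of all genes), and 0 and 3 in slice 1 day (0% and 25.0%, beside 24.9% and 25.3%). In slice 1 week 1 was higher and 4 lower (8.33% and 33.3%, beside 15.0% and 13.6%), and in slice 3 weeks 1 and 2 (8.33% and 16.7%, beside 17.9% and 17.5%), all against adult. The shares lower in slice 1 day and slice 3 weeks were thus at the level of all genes. *Dnajb9*, a J protein of the ER lumen that is a target of the unfolded protein response (chr12:44205897-44210068), was at 101 and 113 CPM in adult, 32.4 and 27.8 *in vitro*, 45.9 and 38.4 in slice 1 day, 37.6 and 23.0 in slice 1 week, and 44.5 and 43.1 in slice 3 weeks. The adult libraries were well above every other library. It was lower than in adult by -1.83 ± 0.16 *in vitro* (edgeR adjusted p = 7.55e-06), -1.35 ± 0.17 in slice 1 day (adjusted p = 9.11e-05), -1.71 ± 0.22 in slice 1 week (adjusted p = 0.000289) and -1.29 ± 0.16 in slice 3 weeks (adjusted p = 0.000202). *Dnajc18*, an ER membrane J protein, was at 25.8 and 24.6 CPM in adult, 12.4 and 14.0 *in vitro*, and 14.2 and 13.7 in slice 1 day, lower by -0.93 ± 0.16 and -0.86 ± 0.17. Its slice 3 weeks call, -0.60 ± 0.16, was lost without either adult library (-0.51 and -0.63) and in 6 of the 8 other omissions of 1 library, down to -0.44 without slice 3 weeks replicate 1. It was also lost with DESeq2 (-0.56), without the filter on low counts (-0.52) or on cells (-0.56), with the larger study label alone (-0.44), with thinned cells (-0.51) and without proliferating cells (-0.54). *Dnajc10*, an ER J protein that reduces disulfide bonds, ran the other way, at 15.2 and 14.0 CPM in adult and 30.5 and 39.7 in slice 3 weeks (1.27 ± 0.19, adjusted p = 0.000606).

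The ER genes *Hspa13* and *Dnajc1* were higher in slice 3 weeks than *in vitro*. *Hspa13*, a microsome-bound HSP70, was at 21.3 and 34.7 CPM in slice 3 weeks, 12.6 and 12.7 in slice 1 day, and 14.5 and 15.2 *in vitro*. It was higher in slice 3 weeks than in slice 1 day by 1.17 ± 0.24 (edgeR adjusted p = 0.00559) and lower *in vitro* than in slice 3 weeks by -0.93 ± 0.22 (adjusted p = 0.00801). The first was lost without slice 1 day replicate 2 (1.18) and with thinned cells (0.92), and the second without slice 3 weeks replicate 2 (-0.46), *in vitro* replicate 1 (-0.81) or *in vitro* replicate 2 (-0.88). *Dnajc1*, an ER membrane J protein that binds ribosomes, was at 52.3 and 69.4 CPM in slice 3 weeks and 33.0 and 33.5 *in vitro* (-0.88 ± 0.20), which was lost without *in vitro* replicate 1 (-0.79) or 2 (-0.81). Of 12 ER genes, 0 were higher and 5 lower *in vitro* than in slice 3 weeks (0% and 41.7%, beside 13.3% and 19.9% of all genes).

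**Figure D5:**
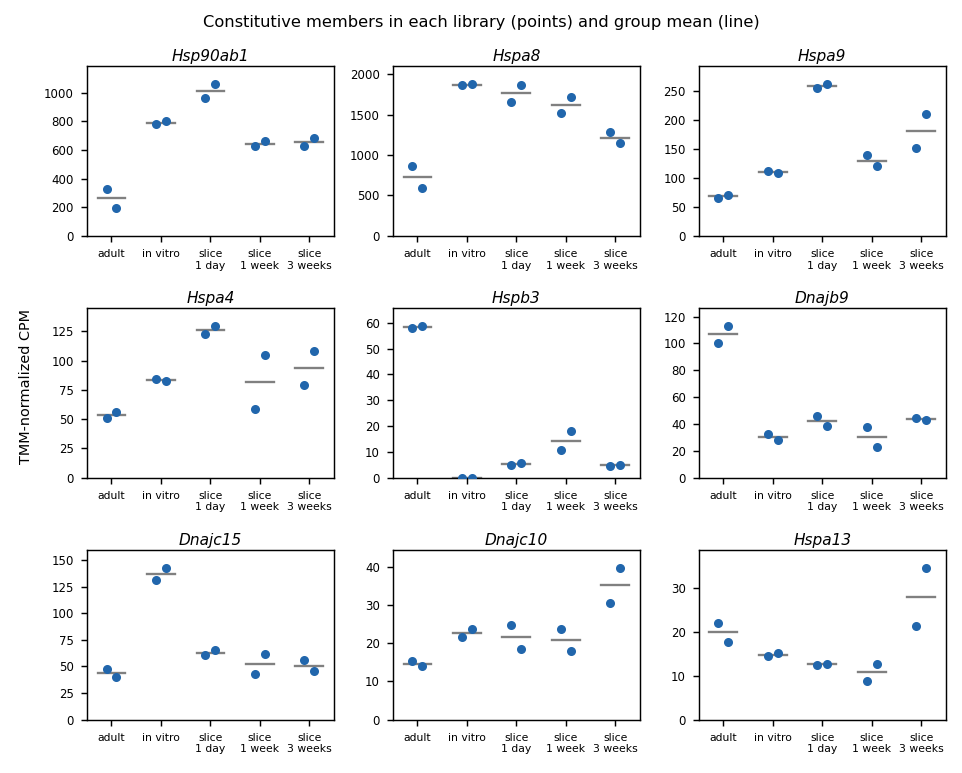
Levels of constitutive chaperone genes in TMM-normalized CPM, with 1 panel per gene and linear axes from 0. Points are libraries and lines the means of 2 libraries. *Hsp90ab1* and *Hspa8* were lowest in both adult libraries, and *Hspb3* and *Dnajb9* highest there.

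The other comparisons over time in slices turned on few genes. From 1 day to 3 weeks, the ribosome-bound J protein gene *Dnajc2* was at 73.7 and 74.5 CPM and then at 42.8 and 47.6 (-0.71 ± 0.14, edgeR adjusted p = 0.00399). *Hspbp1*, which codes for a nucleotide exchange factor of HSP70 and shares only the prefix of its symbol with the small heat shock proteins, was at 37.0 and 41.4 CPM and then at 25.9 and 22.1 (-0.72 ± 0.19, adjusted p = 0.0185). It stood highest *in vitro* at 43.2 and 47.8 CPM. Its fall over time was lost without slice 1 day replicate 1 (-0.80), slice 1 day replicate 2 (-0.62) or slice 3 weeks replicate 2 (-0.60). *Dnajc13*, an endosomal J protein, was at 18.1 and 23.0 CPM in slice 1 day and 26.3 and 46.3 in slice 3 weeks (0.82 ± 0.25). This call was lost without slice 3 weeks replicate 2 (0.34), slice 1 day replicate 1 (0.67) or slice 1 day replicate 2 (1.03) and with thinned cells (0.83). *Dnajc10* was also higher at 3 weeks than at 1 day (0.74 ± 0.20), a call lost without slice 3 weeks replicate 2 (0.55), slice 1 day replicate 2 (0.53) or proliferating cells (0.65) and with thinned cells (0.75).

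The rest of the chaperone system was read from a list of 46 genes, of which 43 were tested. Of these 43, 18 were higher and 6 lower *in vitro*, 18 and 3 in slice 1 day, 7 and 5 in slice 1 week, and 8 and 4 in slice 3 weeks, all against adult. From 1 day to 3 weeks in slices 2 were higher and 17 lower. The share higher was 41.9% both *in vitro* and in slice 1 day, beside 22.4% and 24.9% of all genes, and the share lower from 1 day to 3 weeks was 39.5%, beside 12.8%. In slice 1 week and slice 3 weeks the shares higher, 16.3% and 18.6%, were near the 15.0% and 17.9% of all genes. The cytosolic chaperonin TRiC, which folds actin and tubulin, was represented by 7 subunit genes. All 7 were higher in slice 1 day than in adult, with a median log2 fold change of 1.44, and 6 of 7 were lower in slice 3 weeks than in slice 1 day, with a median of -0.71. Its subunit gene *Tcp1* was at 70.7 and 74.2 CPM in adult, 225 and 268 in slice 1 day, and 145 and 162 in slice 3 weeks, and was higher in slice 1 day than in adult by 1.77 ± 0.15 (edgeR adjusted p = 9.50e-06). *Cct2* was at 62.3 and 61.4 CPM in adult and 170.1 and 185 in slice 1 day, higher by 1.52 ± 0.17 (adjusted p = 4.37e-05). Of 17 cochaperones of HSP90 and HSP70, 9 were higher and 2 lower *in vitro* and 6 higher and 1 lower in slice 1 day against adult, and 8 were lower and 0 higher in slice 3 weeks than in slice 1 day. As shares, 52.9% and 35.3% were higher and 47.1% were then lower, beside 22.4%, 24.9% and 12.8% of all genes. Of 6 prefoldin genes, whose products carry clients to TRiC, 3 were higher *in vitro* and 3 in slice 1 day, with none lower, that is 50% beside the same 22.4% and 24.9%. *Pfdn1* was at 62.3 and 68.0 CPM in adult and 144 and 157 *in vitro* (1.21 ± 0.15, adjusted p = 5.85e-05). *Bag2*, a BAG domain exchange factor of HSP70, was at 1.83 and 1.93 CPM in adult and 5.77 and 5.36 in slice 1 day (1.56 ± 0.37, adjusted p = 0.0053), a call lost with cells thinned to 1800 UMIs (1.27). It was at 4.01 and 4.60 CPM *in vitro* (1.20 ± 0.35 against adult), a call lost without adult replicate 1 (1.25), adult replicate 2 (1.23) or *in vitro* replicate 2 (1.21), with cells thinned to 1800 UMIs (1.01) and with the larger study label alone (1.15).

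*Hsf1*, which codes for the heat shock factor itself, was lower in every cultured group than in adult. It was at 29.1 and 33.9 CPM in adult, 14.1 and 13.4 *in vitro*, 13.9 and 13.5 in slice 1 day, 18.8 and 10.2 in slice 1 week, and 14.9 and 13.3 in slice 3 weeks. Adult values lay above all others, and the gene was lower by -1.19 ± 0.18 *in vitro* (edgeR adjusted p = 0.000225), -1.20 ± 0.19 in slice 1 day (adjusted p = 0.00041), -0.97 ± 0.27 in slice 1 week (adjusted p = 0.0194) and -1.16 ± 0.18 in slice 3 weeks (adjusted p = 0.000669). The slice 1 week call was lost with cells thinned to 1800 UMIs (-0.76) and without adult replicate 2 (-0.87), slice 1 week replicate 1 (-1.59) or slice 1 week replicate 2 (-0.78). HSF1 is known to be controlled mainly as a protein, which was not measured here. *Hsf4*, a related factor known from the lens, was near its limit of detection, at 0.293 and 0 CPM in adult and 1.28 and 1.63 *in vitro* (2.95 ± 0.81, adjusted p = 0.0103), a call lost without adult replicate 2 (2.28) or *in vitro* replicate 2 (2.89). Over all alternatives this difference ranged from 2.28 to 7.35. *Fkbp5*, an HSP90 cochaperone known as a target of glucocorticoids, was at 27.0 and 27.9 CPM in adult, 8.25 and 9.20 *in vitro*, and 17.3 to 35.8 in the slice libraries, lower *in vitro* than in adult by -1.65 ± 0.21 (adjusted p = 8.25e-05). *Cryab*, the small heat shock protein alpha B crystallin, was at 5.57 and 1.55 CPM in adult and 0.257 and 0.168 *in vitro* (-4.08 ± 0.64, adjusted p = 0.000343). The value was -2.72 without adult replicate 1 and -6.46 with cells thinned to 1800 UMIs, called in both. *Tomm34*, a cochaperone in mitochondrial import, was at 65.0 and 59.1 CPM in adult and 42.2 and 40.4 in slice 1 day (-0.59 ± 0.15), a call lost without any 1 library other than adult replicate 2 and slice 1 day replicate 1, with -0.48 without adult replicate 1 and -0.50 without slice 1 day replicate 2. The call was also lost in all other alternatives that could be fitted, with values from -0.57 to -0.49, except library size alone, the replicate block and the omission of cells over 100 *Hspa1a* UMIs.

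Neutrophil and proliferation transcripts were both higher in slice 1 day than in adult, as were *Hsp90aa1*, *Hspd1*, *Hspe1*, *Hspb1*, *Hsp90ab1* and *Hspa9*. The differences of these 6 genes were therefore computed again without the cells richest in such transcripts. Cells with over 1% of their UMIs on the neutrophil list were 13.1% and 11.2% of the slice 1 day libraries and 0 in adult. Without them the log2 fold change between slice 1 day and adult was 2.12 for *Hsp90aa1*, 1.89 for *Hspd1*, 1.43 for *Hspe1*, 3.26 for *Hspb1*, 2.00 for *Hsp90ab1* and 1.98 for *Hspa9*. Cells with 3 or more UMIs on the proliferation list were 13.5% and 26.8% of the slice 1 day libraries and 0.290% and 0.255% of the adult ones. Without those cells the same differences were 2.13, 1.69, 1.24, 3.55, 1.89 and 1.94 in the same order, and all 12 stayed called. The median cell of slice 1 day replicates 1 and 2 held 5 and 43 UMIs of the neutrophil list. The cut at 1% therefore left part of the neutrophil transcripts in.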

How the data were processed

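Single cells of sorted microglia were profiled with the 10x Genomics 3′ kit, version 2, in 10 libraries. The authors deposited 1 table of whole-number UMI counts per gene and cell for each library, not normalized. The submitters' processing notes name Cell Ranger 1.3.0 and genome build mm10. According to the methods of the study, default settings were used and the aggregate function joined the libraries into 1 table, but the tables used here are 1 per library and were treated as raw counts, since whether that step had thinned them is not given in the sources used here. With the cut-offs of the study, a barcode was kept at up to 5% mitochondrial UMIs, at least 400 genes and at most 30000 UMIs, which removed 578 of 19637. The study also set outliers aside by t-SNE, which was not repeated, so the cells kept here differ from its own: the 148 and 61 cells kept in slice 1 week are more than the study counted there, by a wide margin in 1 library. No doublet caller was run.

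The counts of kept cells were summed per library and gene, so that the 2 libraries of a group, not cells, were the replicates. One edgeR 4.0.16 quasi-likelihood model (R 4.3.3) was fitted to the 5 groups with TMM factors after filterByExpr (minimum count 10), which left 12157 genes, 5 residual degrees of freedom and a biological coefficient of variation of 18.3%. The 6 comparisons were contrasts of this model, and those with adult share its 2 libraries. Alternatives were DESeq2 1.42.0, library size alone, no filter on genes, no filter on cells, cells thinned to 1800 UMIs, the study label as covariate or 1 label alone, a replicate block, 4 exclusions of cells, of which 2 were chosen after seeing the data, and leaving out each library. Intervals and floors cover counting error only.

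Members, gene lists and tests were chosen with earlier results of these data known. Named in full were the inducible genes, *Hsp90ab1* and *Hspa8*, any member with a group mean over 200 CPM, and, in each comparison, the 3 called constitutive genes with the largest rise and the 3 with the largest fall at an average log2 CPM of at least 4. From the list of other chaperone genes the 3 largest rises and 3 largest falls *in vitro* and in slice 1 day against adult were named, apart from 1 that is not reported here. Sequences are from RefSeq on GRCm38.p6, the assembly of mm10. Python 3.11.15 was used for tables and figures.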

Additional observations from a re-analysis of the deposited data

How the results depend on the processing

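With 2 libraries a group and 5 residual degrees of freedom, counts of called genes near the thresholds are loose, and the 148 and 61 cells of slice 1 week limit that group most. Alternatives were run for the genes named by rule, and none of their called log2 fold changes turned direction under those run. Several that were not called did, among them *Hspa1a* against adult in slice 1 day, *in vitro* and slice 3 weeks, *Hspa1b*, and *Hspb1* in slice 1 week. Outside the omissions of 1 library, 129 of the counts of called genes moved by no more than 1.5 times and 9 moved further. With library size alone the genes lower *in vitro* than in adult were 19, including all 12 lower under TMM scaling, and slice 3 weeks against adult gave 10 higher and 11 lower. With cells thinned to 1800 UMIs, slice 1 week against adult gave 3 higher and 3 lower, and 2 genes were higher in slice 3 weeks than in slice 1 day. The latter count was 13 with the libraries of the larger study label alone, which included all 7, and 3 without proliferating cells. With the study label as a covariate 13 genes were lower in slice 3 weeks than in slice 1 day, including all 8. The cause of these changes was not tested. Of the log2 fold changes of named genes, 84 lost and 54 gained a call under these alternatives and 2247 did neither.

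Leaving out 1 library at a time, the genes higher and lower than in adult were 16 to 23 and 9 to 13 *in vitro*, 15 to 21 and 8 to 12 in slice 1 day, 4 to 8 and 5 to 11 in slice 1 week, and 11 to 19 and 3 to 7 in slice 3 weeks. Relative to slice 3 weeks, 4 to 7 were higher and 3 to 13 lower *in vitro*, and slice 3 weeks against slice 1 day gave 1 to 12 higher and 5 to 11 lower. Where this left a group with 1 library, that library was assumed to vary like the others.

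Libraries of the groups share replicate numbers but correlated at only -0.11 to 0.09 in their deviations from the group means, so the numbers were not taken to pair them. With the replicate block the counts higher and lower were 19 and 11 *in vitro*, 18 and 9 in slice 1 day, 6 and 9 in slice 1 week and 14 and 6 in slice 3 weeks, each relative to adult. They were 7 and 10 *in vitro* relative to slice 3 weeks, and 6 and 7 in slice 3 weeks relative to slice 1 day. Leaving out cells with 2 or more UMIs of markers of other cell types emptied 1 library each of slice 1 day and slice 1 week, and comparisons with those groups could not be fitted under it.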

Other observations

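Among members outside the naming rule, chosen here after their values were seen and given without a test, several rare genes differed widely in level. *Hspa2*, an HSP70 best known from the testis, was at 1.46 and 2.06 CPM in adult and at 7.39 and 6.82 *in vitro* and 7.50 and 6.57 in slice 3 weeks. *Hspa4l*, an HSP110 relative, was at 2.93 and 2.58 CPM in adult and 11.5 and 11.6 *in vitro*. *Dnaja4*, a cytosolic J protein, was at 7.76 and 8.37 CPM in adult and 0.578 and 0.365 *in vitro*, with 4.79 and 6.20 in slice 3 weeks. *Dnajc28* was at 7.47 and 7.60 CPM in adult and 0.524 and 0.515 in slice 1 day. *Dnajb13*, known from sperm flagella, had 234 UMIs over both *in vitro* libraries and 3 over both adult libraries, a ratio of 25.0 in level with a 95% interval from 8.46 to 122 for counting error only. Of the unfolded protein response, the ER stress element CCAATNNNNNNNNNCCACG was present before 1 member, *Dnajc3*, against 0.137% of all genes with a window, and *Dnajc3* ranged from 83.5 to 126 CPM over the 10 libraries.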
